A study of Mus musculus with 8 samples.

Results

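The CXCL12 chemokine axis was followed in the cerebral cortex of newborn mice through its 3 genes, the ligand Cxcl12 and its receptors Cxcr4 and Ackr3, out of 53392 genes in the deposited files. The genes were picked by symbol, and the estimated reads and TPM of their 8 transcripts were summed per gene. They were chosen by their mutant and wild-type levels, which had been seen in earlier results of these data, so every difference between genotypes in the 3 genes is given as a description with no test. The mice were of the FVB/N strain at postnatal day 0. There were 4 libraries from animals with the R342X mutation in Phf6, which sits on the X chromosome and encodes a PHD finger protein of the nucleus, and 4 from wild-type animals. The study asked how this mutation changes cortical expression. The labels name no sex, litter, batch or pooling, so the spread between libraries of a genotype may be in part technical.

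CXCL12, also called SDF-1, is a secreted chemokine that directs cell migration through CXCR4, a receptor coupled to inhibitory G proteins. ACKR3, formerly CXCR7, binds the same ligand, works through arrestins rather than G proteins, and takes the chemokine into the cell, which shapes its gradients. In the developing cortex the meninges and cells of the subventricular zone make CXCL12, which holds Cajal-Retzius cells at the pial surface and keeps interneurons in their migratory streams. Migrating interneurons carry both receptors. CXCL12 also binds heparan sulfate on cells and in the matrix.

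In GRCm38 (GENCODE M21), Cxcl12 (ENSMUSG00000061353) lies on the plus strand of chromosome 6 from 117168535 to 117181367, Ackr3 (ENSMUSG00000044337) on the plus strand of chromosome 1 from 90203980 to 90216751, and Cxcr4 (ENSMUSG00000045382) on the minus strand of chromosome 1 from 128588199 to 128592293. The annotation places no other gene over any of them. Cxcl12 has 3 coding transcripts, which share their first 266 coding bases and part at the end of exon 3. Cxcl12-202 (the alpha form, 89 amino acids) stops there, Cxcl12-203 (the beta form, 93 amino acids) goes on into exon 4 at 117178583, and Cxcl12-201 (the gamma form, 119 amino acids) uses a different exon 4 that opens at 117176086. The coding ends are shown because they are what tells the forms apart. They were read from the GENCODE M21 transcripts, 5′ to 3′ on the plus strand, with the last 24 shared bases in lower case and the bases of each form's own end, stop codon included, in capitals.
Cxcl12-202: gtacctggagaaagctttaaacaaGTAA
Cxcl12-203: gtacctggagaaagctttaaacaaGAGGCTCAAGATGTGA
Cxcl12-201: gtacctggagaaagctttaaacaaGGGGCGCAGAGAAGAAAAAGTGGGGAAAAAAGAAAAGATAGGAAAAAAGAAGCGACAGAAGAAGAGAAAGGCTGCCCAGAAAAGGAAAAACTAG
The capitals hold 1, 13 and 91 coding bases in the alpha, beta and gamma forms. The first capital is a G in all 3 forms but lies at a different genomic position in each. In sequence the forms are thus identical over their first 267 bases. The added tail of the gamma form is known to be basic and to bind heparan sulfate tightly.

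Estimated reads per library ran from 30469745 to 39453169 in mutants and from 48841467 to 74266937 in wild type, so every wild-type library was deeper than every mutant library. Phf6 itself was at 39.3 to 43.6 CPM in mutants against 72.1 to 91.9 CPM. All 14 markers of cortical projection neurons were measured, among them Emx1 and Tbr1, with summed TPM between 1526 and 1780 in the 8 libraries. On the principal component that carried the most variance (35.3%), set 1 was made up of mutant replicates 1 to 3 and wild-type replicate 1, whereas set 2 held wild-type replicates 2 to 4 and mutant replicate 4. These sets were drawn from the expression values and not from the labels. Each holds a lone library of a genotype, so values within a set have no replicate on that side.

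Ackr3, the scavenging receptor, was lower in every mutant library. It stood at 9.58, 9.39, 9.87 and 9.94 CPM in mutant replicates 1 to 4 and at 13.8, 12.2, 12.2 and 12.5 CPM in the wild-type replicates. The genotypes did not overlap, and the highest library was wild-type replicate 1. Mutants averaged 9.70 ± 0.26 CPM against 12.7 ± 0.77 CPM (SD, n = 4 for both), which is 76.3% of wild type. The log2 difference was -0.39 ± 0.07 (SE) in the edgeR fit on genotype alone. It was -0.53 within set 1 and -0.31 within set 2, where log2 CPM of the mutant libraries was set against that of the wild-type libraries. The 4 mutant libraries lay close together: 6.02% of tested genes had a smaller SD of log2 CPM among mutants, against 27.3% among wild type. These levels rest on 288 to 382 estimated reads per mutant library and 677 to 901 per wild-type library. At so few reads counting error adds to the spread, so nothing is read from how close the mutant libraries lay. In bulk tissue, fewer cells of a type and less RNA per cell cannot be told apart.

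Cxcl12, the ligand, had overlapping levels in the 2 genotypes. It stood at 78.5, 78.8, 70.0 and 111.6 CPM in mutant replicates 1 to 4 and at 67.6, 75.2, 87.9 and 96.9 CPM in wild-type replicates 1 to 4. Mutant replicate 4 was the highest of the 8 libraries and wild-type replicate 1 the lowest. Mutants averaged 84.7 ± 18.4 CPM against 81.9 ± 13.04 CPM (SD, n = 4 for both), with a log2 difference of 0.05 ± 0.15 (SE), less than the spread within either genotype. Its sign changed when mutant replicate 4 was left out (-0.11 ± 0.11), and when wild-type replicate 1 was (-0.03 ± 0.15). Within set 1 the mutant libraries were at 70.0 to 78.8 CPM and the wild-type library at 67.6 CPM, a log2 difference of 0.16. Within set 2 the mutant library was at 111.6 CPM and the wild-type libraries at 75.2 to 96.9 CPM, a log2 difference of 0.37. With the library set beside genotype in the model, the log2 difference was 0.27 ± 0.08 (SE).

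Cxcr4, the signalling receptor, followed the library sets more than the genotype. It stood at 17.2, 17.7, 17.7 and 11.7 CPM in mutant replicates 1 to 4 and at 21.8, 13.6, 14.6 and 12.2 CPM in wild-type replicates 1 to 4. All 4 libraries of set 1 lay above all 4 of set 2, while the 3 highest libraries for Cxcl12 were in set 2. The sets were drawn from the levels of all tested genes, Cxcr4 among them. How many other genes split this way was not counted, so the split is not read as particular to Cxcr4. Mutants averaged 16.1 ± 2.91 CPM against 15.6 ± 4.26 CPM (SD, n = 4 for both), with a log2 difference of 0.05 ± 0.19 (SE). That value was below 0 without wild-type replicate 2 (-0.0068 ± 0.21) and without wild-type replicate 4 (-0.050 ± 0.19). Without mutant replicate 4 it was 0.18 ± 0.17, and without wild-type replicate 1 it was 0.26 ± 0.14. Within set 1 the mutant libraries, at 17.2 to 17.7 CPM, lay below the wild-type library at 21.8 CPM (log2 difference -0.31). Within set 2 the mutant library, at 11.7 CPM, lay below the wild-type libraries at 12.2 to 14.6 CPM (-0.20). Adding the library set to the model gave -0.26 ± 0.07 (SE).

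**Figure D1:**
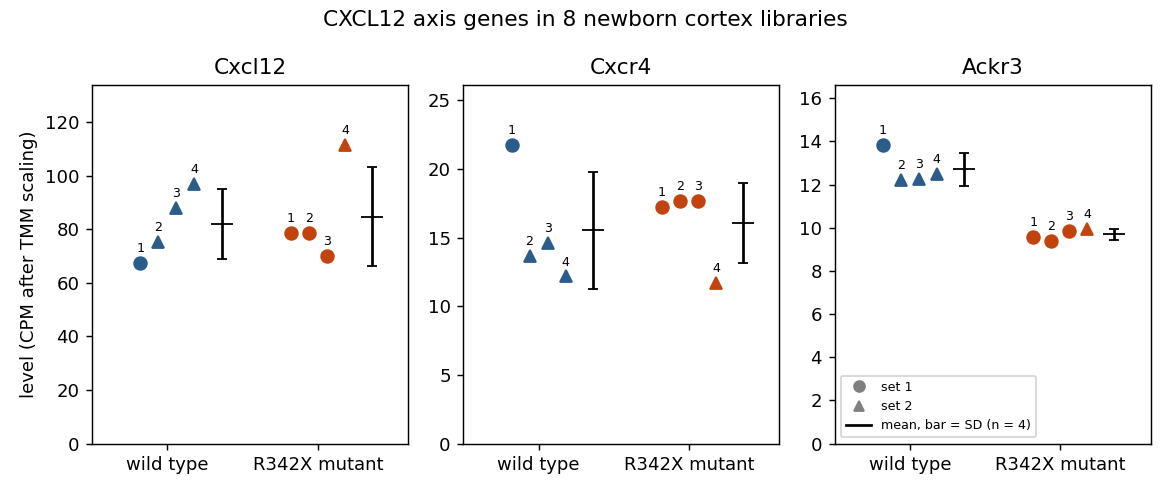
Level of Cxcl12, Cxcr4 and Ackr3 (CPM after TMM scaling, axis from 0) in each library, by genotype, with numbers for the replicates, circles for set 1 and triangles for set 2; black marks give the mean and its SD (n = 4). Ackr3 separates the genotypes (9.39 to 9.94 against 12.2 to 13.8 CPM), while Cxcr4 separates set 1 from set 2 in both genotypes. The sets were themselves drawn from the expression values.

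The members were read against how often other genes did the same. In the edgeR fit on genotype alone, 0 of the 3 members were called at an adjusted p under 0.05, as were 0.0199% of 20097 tested genes. At an unadjusted p under 0.05 the fit held 1 of 3 (Ackr3), against 13.7% of tested genes. DESeq2 called 1 of 3 (Ackr3) and 2.64% of the genes for which it gave an adjusted p. With the library set in the edgeR model it called 1 of 3 (Ackr3) and 0.602% of genes. All 4 mutant libraries lay below all 4 wild-type libraries in 1 of 3 members (Ackr3) and in 3.2% of tested genes, and above them in 0 of 3 and 2.95%. Within both sets, mutants lay below wild type in 2 of 3 members (Cxcr4 and Ackr3) and in 11.5% of tested genes, and above wild type in 1 of 3 (Cxcl12) and in 10.2%. Since the members were chosen with this contrast known, nothing is read from these counts.

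The authors' deposited table lists log2 fold changes of -0.31 for Ackr3 (SE 0.12), -0.06 for Cxcr4 (SE 0.09) and 0.24 for Cxcl12 (SE 0.10). Its adjusted p was under 0.05 for 2 of the 3 (Ackr3 and Cxcl12), as in 2.78% of the 14991 genes with an adjusted p in the authors' deposited table. Beside these, edgeR on genotype alone gave -0.39, 0.05 and 0.05 in the same order, and -0.42, -0.26 and 0.27 once the library set was included. In size the deposited value is nearer to the first of these fits for Ackr3 and Cxcr4 and nearer to the second for Cxcl12. In sign, the deposited value of Cxcr4 goes with the second fit. That value is smaller than its SE, yet its unadjusted p in the authors' deposited table is 0.0374. The p-value of Cxcr4 thus does not come from fold over SE alone, and those of Ackr3 and Cxcl12 are likewise smaller than fold over SE would give. Whether the deposited folds are on the same scale as the edgeR folds is not known. Nearness in size therefore does not tell which model was used. The model behind the authors' values is not given in the sources used here.

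**Figure D2:**
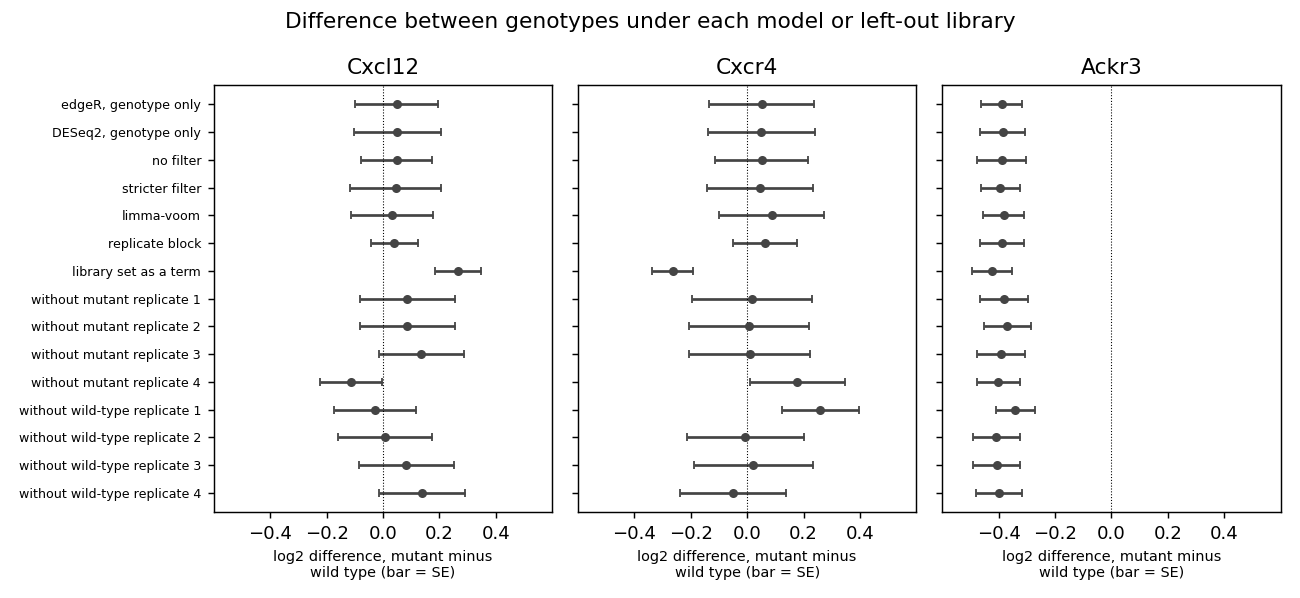
Log2 difference between mutants and wild type (x axis, bars = SE) for each member under each model, filter or left-out library. Ackr3 lies between -0.42 and -0.34 throughout, whereas Cxcl12 and Cxcr4 move across 0, to 0.27 and -0.26 once the library set is in the model.

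Per length, the ligand was the most abundant of the 3 genes in every library. Summed TPM was 56.1 to 90.5 for Cxcl12, 12.8 to 27.3 for Cxcr4 and 6.27 to 10.03 for Ackr3, so the 3 ranges did not overlap. Mean TPM over the 8 libraries exceeded that of 85.6% of tested genes for Cxcl12, 61.2% for Cxcr4 and 46.8% for Ackr3. The ratio of Cxcr4 to Ackr3 TPM was 2.74, 3.53, 3.01 and 1.91 in mutant replicates 1 to 4 and 2.72, 1.80, 1.96 and 1.49 in wild-type replicates 1 to 4. It was higher in all libraries of set 1 than in those of set 2, and within each set it overlapped between genotypes only in set 2. The ratio of Cxcl12 to Ackr3 TPM was 9.14, 10.8, 8.27 and 11.8 in mutant replicates 1 to 4 and 5.60, 6.74, 7.89 and 8.61 in wild-type replicates 1 to 4. The 2 genotypes overlapped in this ratio only through mutant replicate 3 and wild-type replicate 4.

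Among chemokine genes both the ligand and its signalling receptor ranked second in their family in every library. Of 37 ligand genes, 12 reached a mean of 1 TPM. Ccl27a was at 241.3 ± 6.06 TPM (SD, n = 8), but it overlaps Il11ra1 on the opposite strand and has a close copy (Ccl27b), so its level is uncertain. Cxcl12 followed at 67.6 ± 11.3 TPM, then the neuronal chemokine Cx3cl1 at 45.6 ± 4.89 TPM and Cxcl14, which can bind CXCR4, at 23.7 ± 2.37 TPM. Of 25 receptor genes, 7 reached a mean of 1 TPM. Ackr1, a scavenger of inflammatory chemokines, was at 53.2 ± 3.90 TPM, but it overlaps Cadm3 on the same strand and is equally uncertain. Cxcr4 was at 18.8 ± 4.71 TPM. The microglial receptor Cx3cr1 (8.88 ± 1.51 TPM, with several genes annotated over its span) and Ackr3 (8.04 ± 1.21 TPM) did not differ beyond their spread, and Ackr3 ranked between 3 and 5 in single libraries. Cxcl11, the other chemokine ligand of ACKR3, was at 0.03 to 0.18 TPM.

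**Figure D3:**
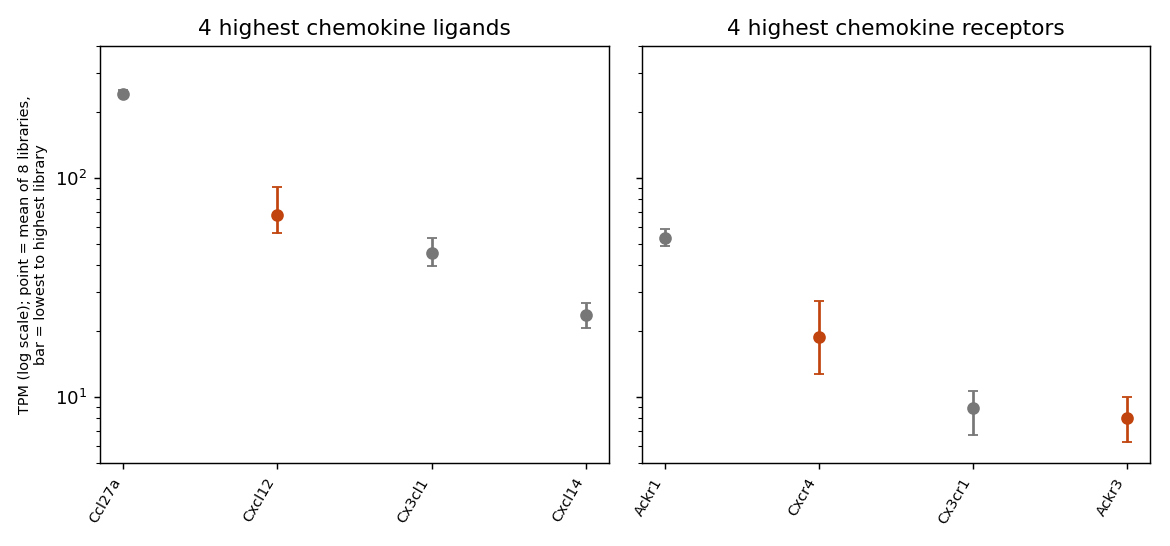
Level per length (TPM, log axis) of the 4 highest chemokine ligand and the 4 highest receptor genes; points are means of 8 libraries, bars run from the lowest to the highest library, and the 3 members are in red. Cxcl12 (67.6 TPM) and Cxcr4 (18.8 TPM) are each second in their family, and Ackr3 (8.04 TPM) overlaps Cx3cr1.

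The alpha form carried most of the Cxcl12 signal. Its TPM was 51.7, 52.2, 42.9 and 67.1 in mutant replicates 1 to 4 and 41.0, 43.6, 50.3 and 53.3 in wild-type replicates 1 to 4. It made up 75.8% ± 1.39 of Cxcl12 TPM in mutants against 73.0% ± 1.22 in wild type (SD, n = 4 for both). The beta form had shares of 15.1%, 13.7%, 15.2% and 18.1% in mutant replicates 1 to 4 and of 17.6%, 17.1%, 19.5% and 20.3% in wild-type replicates 1 to 4. Mutant replicates 1 to 3 lay below every wild-type library in this share, and mutant replicate 4 lay among them. The gamma form, with the basic tail shown above, had shares of 6.74%, 7.61%, 7.32% and 6.25% in mutants and of 7.94%, 6.69%, 5.94% and 5.27% in wild type, in replicate order. Its share was higher in each library of set 1 than in each of set 2, by a narrow margin between mutant replicate 1 and wild-type replicate 2. The gamma form itself averaged 4.88 ± 0.65 TPM in mutants against 4.10 ± 0.27 TPM. The retained-intron transcript Cxcl12-204 held 1.45% to 2.35% of Cxcl12 TPM. The last exon of the alpha form lies within that of Cxcl12-204, and the last exon of the beta form (117178583 to 117181366) lies within that of the gamma form (117176086 to 117181367), so many reads fit more than 1 form and the split between them is an estimate whose error is unknown.

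**Figure D4:**
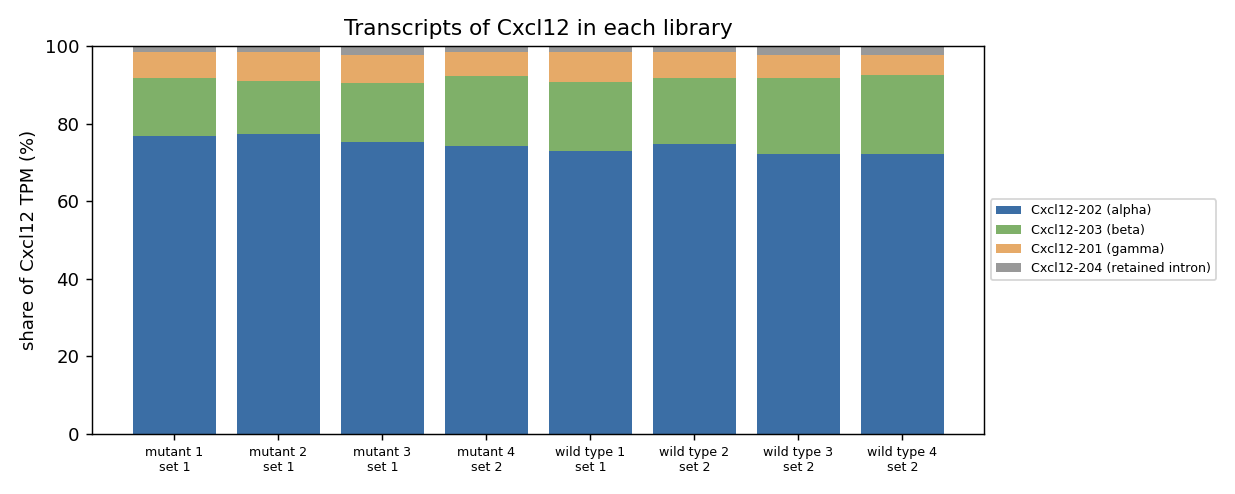
Share of Cxcl12 TPM (%) held by each of its 4 transcripts in each library. The alpha form holds 72.2% to 77.2% throughout, and the beta share is lowest in mutant replicates 1 to 3 (13.7% to 15.2%).

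Each receptor was read mainly through its full-length transcript. Ackr3-201 stood at 5.96, 5.98, 5.96 and 5.88 TPM in mutant replicates 1 to 4 and at 8.69, 6.96, 7.16 and 6.97 TPM in wild-type replicates 1 to 4. It was lower in every mutant library, as the gene was. The fragment Ackr3-202 (404 bases) had 1.00 to 14.9 estimated reads per library, yet its short length gave it 4.56% to 23.6% of Ackr3 TPM, so summed TPM of this gene is noisier than its counts. Cxcr4-201 stood at 19.4, 19.2, 18.6 and 11.4 TPM in mutants and at 23.3, 13.3, 14.6 and 12.2 TPM in wild type, in replicate order, and kept the split between the sets. The shorter Cxcr4-202 had 13.2 to 81.1 estimated reads per library.

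Markers of meningeal and vascular cells, which can make CXCL12 or border on such cells, were set beside Cxcl12. Intermediate progenitors, whose markers go the other way, are taken up with the receptors below. The 15 meningeal fibroblast markers, among them the collagen genes Col1a1 and Col3a1, were all tested and 13 had a log2 difference above 0 (median 0.14, against 0.0014 over all tested genes), with 0 called. Their summed TPM was 333.1, 332.4, 323.5 and 434.6 in mutant replicates 1 to 4 and 283.6, 276.6, 331.6 and 343.3 in wild-type replicates 1 to 4, so mutant replicate 4, the highest for Cxcl12, was also the highest for these markers. The retinoic acid enzyme Aldh1a2 had the smallest p of that list (0.29 ± 0.12, edgeR adjusted p = 0.344). Endothelial markers summed to 363.8 to 432.7 TPM in mutants and 333.2 to 374.8 TPM in wild type (11 of 15 above 0), with Eng at 0.38 ± 0.06 (adjusted p = 0.133). Pericyte and smooth muscle markers summed to 126.6 to 169.4 TPM and 123.9 to 140.8 TPM (7 of 11 above 0), with Tagln at 0.50 ± 0.14 (adjusted p = 0.237). Mutant replicate 4 was the highest library for all 3 lists. The genotypes overlapped in each of these sums, and no marker of these lists was at 0. DESeq2 called 0, 2 and 1 genes of the 3 lists (2.64% of all genes), among them Eng (adjusted p = 3.65e-05), and 1, 4 and 3 had an unadjusted p under 0.05 (13.7% of all genes). On genotype alone the medians of the 3 lists were 0.14, 0.09 and 0.07. With the library set in the edgeR model the medians were 0.28, 0.20 and 0.16, against -0.0040 over all tested genes. That model called 1 gene in each list (0.602% of all genes), all higher in mutants: Aldh1a2 (0.48 ± 0.06, adjusted p = 0.011), Eng (0.36 ± 0.06, adjusted p = 0.0301) and the smooth muscle actin gene Acta2 (0.89 ± 0.17, adjusted p = 0.0422), the last named after its values were seen. The set term was drawn from these same expression values, so calls made with it are descriptions only. The part of these cells in the Cxcl12 values was not tested.

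Markers of cells that carry the receptors were set beside them in the same way. The list of intermediate progenitors bears on Cxcl12 too, since cells of the subventricular zone make the ligand. The 19 interneuron markers summed to 977.4 to 1062 TPM in mutants and 991.8 to 1063 TPM in wild type, and 13 had a log2 difference below 0 (median -0.04). Gad2, a GABA-synthesizing enzyme, had the smallest p (-0.38 ± 0.09, edgeR adjusted p = 0.189). The 11 Cajal-Retzius markers summed to 223.7 to 258.4 TPM in mutants and 213.7 to 239.9 TPM in wild type (7 below 0, median -0.05), with Nhlh2 at -0.36 ± 0.10 (adjusted p = 0.232). Intermediate progenitor markers separated the genotypes as Ackr3 did: they summed to 204.3 to 231.1 TPM in mutants and 246.7 to 253.5 TPM in wild type, and 9 of 10 tested were below 0 (median -0.21), led by the somatostatin receptor Sstr2 (-0.38 ± 0.06, adjusted p = 0.138). None of the 3 lists had a called gene in the fit on genotype alone, and no listed marker was at 0. At an unadjusted p under 0.05 they held 4, 1 and 3 genes in that order (13.7% of all tested genes), and DESeq2 called 1, 1 and 3 (2.64% of all genes). With the library set in the model edgeR called 3 intermediate progenitor genes, all lower in mutants, and none of the other 2 lists: Sstr2 (-0.44 ± 0.05, adjusted p = 0.00689) and, named after their values were seen, the proneural factor Neurog2 (-0.54 ± 0.10, adjusted p = 0.0363) and Insm1 (-0.32 ± 0.05, adjusted p = 0.0208). Since the sets were drawn from the same expression values, these calls are descriptions only. The part of these cells in the receptor values, and that of intermediate progenitors in the Cxcl12 values, was not tested.

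The other marker lists give the cell types beside which all 3 genes were read. Cortical projection neuron markers also separated the genotypes, at 1526 to 1647 TPM in mutants and 1669 to 1780 TPM in wild type (9 of 14 below 0, median -0.05), and so did astrocyte and oligodendrocyte precursor markers in the other direction, at 1295 to 1498 TPM against 1048 to 1274 TPM (11 of 12 above 0, median 0.30). Markers of radial glia and dividing cells were below 0 in 13 of 14 (median -0.23), with overlapping sums. Microglia and macrophage markers were above 0 in 12 of 15 (median 0.14). The lists for hippocampus, blood and other brain regions had 5 of 8, 4 of 8 and 8 of 10 above 0, with medians of 0.03, -0.0047 and 0.08. Blood markers summed to between 2439 and 10453 TPM in single libraries. Once the library set was in the model, the median was -0.08 for radial glia, 0.14 for astrocytes and precursors, 0.57 for blood and -0.04 for other brain regions. These 4 lists thus depend on that term, as do the meningeal, endothelial and pericyte lists above. The medians of blood and of other brain regions change sign. None of these lists had a called gene in the fit on genotype alone. DESeq2 called 2 genes of the radial glia list, 3 each of the projection neuron and astrocyte lists, 1 of the hippocampus list and 0 of the lists for microglia, blood and other regions. At an unadjusted p under 0.05 the radial glia list held 6 genes, the projection neuron list 6, the astrocyte list 7, the hippocampus list 2 and the remaining lists 0. The shares over all genes were 2.64% for DESeq2 and 13.7% for the unadjusted p. Calls made with the library set, which was drawn from the same values, are descriptions only. With the library set in the model edgeR called 1 projection neuron gene, Neurod6 (-0.32 ± 0.06, adjusted p = 0.0305), and 1 macrophage gene, F13a1 (0.69 ± 0.08, adjusted p = 0.00689), the second named after its values were seen.

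**Figure D5:**
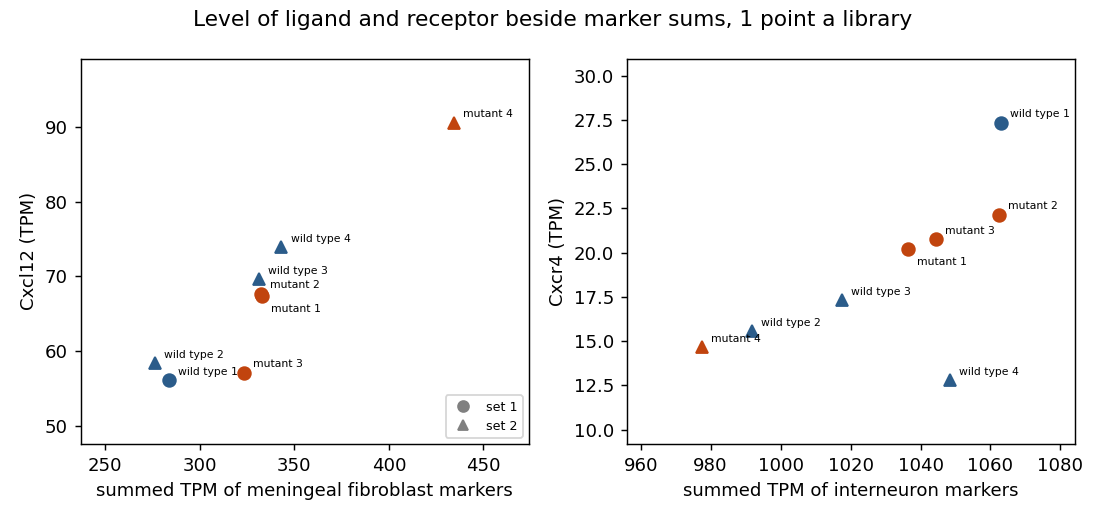
Left, Cxcl12 TPM against the summed TPM of 15 meningeal fibroblast markers; right, Cxcr4 TPM against that of 19 interneuron markers; 1 point a library, colour for genotype (red, mutant; blue, wild type), shape for set, axes not from 0. Mutant replicate 4 is highest for Cxcl12 (90.5 TPM) and for the meningeal sum (434.6 TPM). Wild-type replicate 4 is lowest for Cxcr4 in TPM (12.8) at an interneuron sum of 1049 TPM. In CPM, mutant replicate 4 is lowest for Cxcr4 (11.7, against 12.2 in wild-type replicate 4).

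The genes whose profiles were most like each member were found by Pearson's r of log2 CPM over the 8 libraries, among 11872 protein-coding genes. For Ackr3 they were Phf6 (r = 0.99, Spearman's rho = 0.90) and Arhgap4 (0.99, 0.98), both X-linked and called lower in mutants. Next came the thioredoxin reductase Txnrd1 (0.97, 0.88), Apool (0.96, 0.86), whose protein is mitochondrial, and the inositol pyrophosphate kinase Ppip5k2 (0.96, 0.88). For all 5, every mutant library lay below every wild-type library, as in 3.2% of tested genes. Their likeness to Ackr3, by which they were picked, made that outcome close to fixed. For Cxcl12 they were Thsd1 (0.98, 0.95), the retinol dehydrogenase Rdh10 (0.98, 0.93), the transcription factor Cebpd (0.97, 1.00), the fibrillar collagen Col3a1 (0.97, 0.98) and the matrix proteoglycan Bgn (0.97, 0.93). For Cxcr4 they were Parp1 (0.99, 0.90), Ints10 (0.99, 0.93), Ncoa5 (0.99, 0.93), Mcf2l (0.99, 0.98) and the splicing factor Sfpq (0.99, 0.90). The genes like Cxcl12 and Cxcr4 overlapped between genotypes, and none of those 10 had a log2 difference beyond 0.14. The libraries share the split into sets, which enters each of these values. For Ackr3 they also share the difference between genotypes on which the gene was chosen, and its likeness to Phf6 and the other 4 genes restates that difference. The values describe likeness only.

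The wider pathway was described by 7 lists, with 78 of 82 listed names tested. The edgeR fit on genotype alone called 0 of them, a fit that called 4 of 20097 genes in all. At an unadjusted p under 0.05 there were 8 higher and 4 lower, where 13.7% of all tested genes passed. DESeq2 called 0 higher and 2 lower, where it called 2.64% of all genes, so the counts lie near those over all genes. The median log2 difference was -0.00074, against 0.0014 over all tested genes. Among other ligands and partners, Hmgb1, which forms a complex with CXCL12, stood at -0.12 ± 0.07 and Cd74, a MIF receptor, at 0.42 ± 0.28 (median of 7 tested, -0.09). Of the CXCL12-cleaving enzymes (median of 5, -0.07), the carboxypeptidase Cpm was at 0.25 ± 0.18 and the membrane protease Mmp14 at -0.10 ± 0.11.

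Of 6 tested kinases and arrestins that act on the receptors, 5 were above 0 (median 0.07, but 0.0022 with the library set in the model). Grk2, a kinase that phosphorylates activated receptors, was at 152.4 to 157.2 CPM in mutants against 144.8 to 145.8 CPM, with no overlap (0.10 ± 0.04, edgeR adjusted p = 0.304). Arrb2, the arrestin through which ACKR3 signals, was at 0.15 ± 0.06 (adjusted p = 0.347). In the G protein and downstream list (26 tested, 14 above 0, median 0.02), Rgs16, which shortens G protein signals, stood at 12.04 to 13.3 CPM in mutants against 15.0 to 17.7 CPM (-0.34 ± 0.08, edgeR adjusted p = 0.179, DESeq2 adjusted p = 0.00919). The focal adhesion kinase Ptk2 was at -0.13 ± 0.04 (edgeR adjusted p = 0.252).

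Of the ubiquitination and sorting genes that send CXCR4 to lysosomes (11 tested, median 0.01), Vps4b was at -0.14 ± 0.07 and Ubqln1 at 0.05 ± 0.05. Of 11 genes of heparan sulfate synthesis (median -0.03), the 6-O-sulfotransferase Hs6st2 was at 85.6 to 92.2 CPM in mutants against 100.4 to 108.3 CPM, with no overlap (-0.21 ± 0.05, edgeR adjusted p = 0.175, DESeq2 adjusted p = 0.00505), and the epimerase Glce was at 0.13 ± 0.06. Of 12 transcriptional regulators (median -0.02), the glial factor Sox10 was at 0.36 ± 0.11 (edgeR adjusted p = 0.247) and the interneuron factor Lhx6 at -0.15 ± 0.05 (adjusted p = 0.276).

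Of the other chemokine genes, 14 of 36 ligands and 12 of 23 receptors had enough counts to be tested, and edgeR called 0 of them. At an unadjusted p under 0.05 there was 1 higher and 2 lower (13.7% over all genes), and DESeq2 called 1 higher and 1 lower (2.64% over all genes). Cx3cl1 was at 74.5 to 83.1 CPM in mutants against 65.9 to 73.7 CPM, with no overlap (0.20 ± 0.05, edgeR adjusted p = 0.203, DESeq2 adjusted p = 0.0288). Ccl21a, a lymphoid chemokine that overlaps another gene and has a close copy (Ccl21b), was at 2.93 to 3.23 CPM in mutants against 3.63 to 4.97 CPM (-0.52 ± 0.12, edgeR adjusted p = 0.179, DESeq2 adjusted p = 0.0134). Among the receptors the median log2 difference was 0.10, with Cx3cr1 at 0.21 ± 0.10 (edgeR adjusted p = 0.382) and Ccrl2 at -0.52 ± 0.27 (0.411). No pathway or chemokine gene was called when the library set was in the model, where 0.602% of all genes were. List medians changed sign under that model for the cleaving enzymes (0.05), ubiquitination and sorting (-0.05), heparan sulfate synthesis (0.02) and the chemokine ligands (-0.04, from 0.01).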

How the data were processed

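Each deposited library holds estimated counts per transcript and TPM, which is scaled by effective transcript length, per the file headers. Salmon 0.12.0, DESeq2 and GRCm38 are named, per the submitters' processing notes. How bias, read filters and strand were handled is not given in the sources used here. A comparison table deposited by the authors lists a mean normalized signal, log2 fold changes with standard errors and p-values, per the file headers.

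Estimated counts were summed per gene identifier and rounded. Of 53392 genes, 20097 passed edgeR's default filter. Levels are CPM after TMM scaling. Genotypes were compared with edgeR 4.0.16 (quasi-likelihood test on genotype alone, R 4.3.3), with Benjamini-Hochberg adjustment over all tested genes and a threshold of 0.05. The fit was tested on simulated data. Standard errors are the log2 difference over the root of its F. Where a symbol had 2 identifiers, the more abundant was listed. Library sets are the sides of the leading principal component of log2 CPM (prior count 2).

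Members and lists (7 pathway, 2 chemokine and 13 marker lists) were chosen with earlier results of these data known. Named genes were the called genes of a list (at most 4) or otherwise the 2 with the smallest p (1 for marker lists, of which those for cells that make or sense CXCL12 are given), and the 5 genes most like each member, of average log2 CPM of at least 1, without predicted or Y-linked genes. Alternatives were DESeq2 1.42.0, limma-voom (limma 3.58.1), no filter, a filter of 5 CPM in at least 4 libraries, replicate number or library set as a term, log2(TPM + 0.1 or 1), and each library left out. Of 136202 transcripts, 134907 matched GENCODE M21 in name and version. Counts per library limit the precision of low genes, and library depth is given in the report. A few single genes of the lists are not reported here.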

Additional observations from a re-analysis of the deposited data

Results flagged for a closer look

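Single libraries stood apart from the other 3 of their genotype in 4 of 28 groups of 4 values examined (gap to the nearest library over the whole range, above Dixon's critical value). Chance flags about 1 group in 20, and the groups overlap, since a gene and its main transcript rest on the same reads. Mutant replicate 4 was low for Cxcr4, at 11.7 CPM, and for its transcript Cxcr4-201, at 11.4 TPM. Wild-type replicate 1 was high for Ackr3, at 13.8 CPM, and for Ackr3-201, at 8.69 TPM. Both libraries lie in the set that is otherwise made up of the other genotype. Without wild-type replicate 1 the log2 difference of Ackr3 was -0.34, and without mutant replicate 4 it was -0.40.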

How the results depend on the processing

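The log2 difference of Ackr3 stayed below 0 under all 16 alternatives run, from -0.41 to -0.34 when single libraries were left out, and moved by more than the replicate SD only on the log2(TPM + 1) scale (-0.32), where a pseudocount shrinks low genes. The difference of Cxcl12 ran from -0.11 (without mutant replicate 4) to 0.14 with single libraries left out and was -0.03 without wild-type replicate 1. That of Cxcr4 ran from -0.050 (without wild-type replicate 4) to 0.26, was -0.0068 without wild-type replicate 2, and was -0.26 with the library set in the model; the cause was not tested. Over all genes, 4 were called in the fit on genotype alone, 402 by DESeq2, 13 with no filter, 121 with the library set as a term, and 3 to 699 with single libraries left out (14 without wild-type replicate 1 and 699 without mutant replicate 4). Of the pathway and chemokine genes, 0 were called, 4 by DESeq2, and 0 to 6 with single libraries left out (6 without mutant replicate 4: Rgs16, Cx3cl1, Sox10, Rgs4, Hs6st2 and Mapk3). Same-numbered libraries had correlations of 0.24, -0.03, -0.08 and 0.32 in their deviations from the genotype means. The most alike wild-type library was replicate 1 for mutant replicates 1 to 3 and replicate 4 for mutant replicate 4. These deviations also carry the split into sets, so they cannot decide whether replicate numbers pair the libraries. With the replicate block 20 genes were called. The log2 differences were then 0.04 ± 0.08 for Cxcl12, 0.06 ± 0.11 for Cxcr4 and -0.39 ± 0.08 for Ackr3 (SE). On genotype alone the SEs were 0.15, 0.19 and 0.07 in the same order. Depth limits the receptors most, with 288 estimated reads for Ackr3 in the shallowest library.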
